A study of Mus musculus with 8 samples.

Results

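A set of 6 genes around the receptors that bind the constant (Fc) part of immunoglobulin G was followed in mouse peritoneal macrophages: Fcgr1, Fcgr2b, Fcgr3, Fcgr4, their shared signalling subunit Fcer1g, and Fcgrt. They were chosen by name, and a gene was measured where a row of the array table was paired with its symbol alone. Of these 6 genes, 5 had such a row, exactly 1 each, out of 19938 genes measured in all, and Fcgrt was not analysed here. The macrophages came from the peritoneal lavage of wild-type C57/Bl6 mice, were pooled from 10 animals and rested overnight in medium with 5% fetal calf serum. The 4 groups of 2 samples were then compared, each sample on its own Affymetrix array: 24 h with recombinant histidine-rich glycoprotein (HRG) at 1 µg/ml, 24 h without it (basal), 6 h with HRG at 1 µg/ml and 6 h basal. HRG is a plasma protein that binds, among other partners, heparan sulphate and immunoglobulin G. All samples share the serum, the culture and 1 pool of cells, and the sources used here do not say how far the duplicates were handled apart. Each p-value thus reflects only how far these samples spread, possibly for technical reasons, and with so few arrays the precision is limited.

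Macrophages use Fc receptors to take up particles and immune complexes coated with antibody. Fcgr1, Fcgr3 and Fcgr4 encode activating receptors, which pair with the Fcer1g chain, and its phosphorylated cytoplasmic motif recruits the kinase Syk through kinases of the Src family. Fcgr2b encodes the inhibitory receptor, whose motif recruits phosphatases such as the one encoded by Inpp5d, so the balance of activating and inhibitory receptors sets the threshold of the response. Fcgrt encodes a different kind of receptor, which returns immunoglobulin G from endosomes to the cell surface together with the light chain B2m.

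The labelled cell type was checked against a list of macrophage markers. Over the 8 arrays, the RMA log2 level lay between 13.4 and 13.6 for Adgre1 (a surface receptor that defines mouse macrophages), between 13.1 and 13.3 for Csf1r (the receptor for macrophage colony-stimulating factor), between 13.1 and 13.4 for Cd68 and between 13.8 and 14.0 for Lyz2 (lysozyme). Among the other macrophage markers, the scavenger receptor Cd163 was between 6.09 and 6.52 and the mannose receptor Mrc1 between 6.53 and 8.46. Markers of other cell types were also measured, with the mast cell protease Cpa3 between 10.3 and 11.7 and the B cell receptor chain Cd79b between 9.77 and 10.7. The 8 natural killer cell markers averaged between 5.33 and 5.46 on every array. Array medians lay between 7.18 and 7.29 and lower quartiles between 5.85 and 6.00, and levels of a gene were compared between arrays. Levels of different genes are not ranked here. Where the level of Fcgr2b is subtracted below, only the change between groups is read.

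On chromosome 1, Fcgr2b, Fcgr4 and Fcgr3 are consecutive coding genes. Fcer1g lies further along the same region, with other coding genes between (promoter window from base 171234300, against 171059354 for Fcgr3). Fcgr1 is on chromosome 3. The promoter windows of the 3 activating receptors are shown because the largest differences below concern them. Each window runs from 250 bases before to 50 bases after the start of the gene in RefSeq on GRCm38.p6, 5′ to 3′ on the strand of the gene, and all 6 genes had a window in that table, with the first of 2 overlapping windows shown for Fcgr3. Capitals mark matches to 4 motifs searched on both strands: the PU.1 core GAGGAA (PU.1 is a transcription factor of myeloid cells), the STAT motif TTCNNNGAA, the interferon-stimulated response motif (2 copies of GAAA with 2 bases between them) and the AP-1 motif TGANTCA.
Fcgr1, chr3:96293920-96294219, minus strand: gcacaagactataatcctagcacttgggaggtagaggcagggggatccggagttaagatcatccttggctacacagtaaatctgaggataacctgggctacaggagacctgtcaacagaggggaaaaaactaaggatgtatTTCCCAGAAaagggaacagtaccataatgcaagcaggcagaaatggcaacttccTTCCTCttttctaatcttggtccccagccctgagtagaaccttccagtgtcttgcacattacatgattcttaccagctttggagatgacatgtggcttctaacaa
Fcgr4, chr1:171018676-171018975, plus strand: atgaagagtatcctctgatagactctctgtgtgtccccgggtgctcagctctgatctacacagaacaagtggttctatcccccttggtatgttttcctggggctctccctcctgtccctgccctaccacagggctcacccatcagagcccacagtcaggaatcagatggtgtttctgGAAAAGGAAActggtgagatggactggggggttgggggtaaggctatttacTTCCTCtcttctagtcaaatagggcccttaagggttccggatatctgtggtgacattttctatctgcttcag
Fcgr3, chr1:171059354-171059653, minus strand: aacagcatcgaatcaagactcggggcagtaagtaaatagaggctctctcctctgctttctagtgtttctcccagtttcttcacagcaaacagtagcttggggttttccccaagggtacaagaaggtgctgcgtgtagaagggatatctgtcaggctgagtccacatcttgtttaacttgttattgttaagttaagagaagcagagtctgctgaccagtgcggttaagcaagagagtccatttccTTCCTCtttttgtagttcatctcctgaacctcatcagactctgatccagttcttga
The PU.1 core stands once in each of these windows, in its reverse complement TTCCTC, and 28.3% of the 32851 promoter windows of the table hold it. The Fcgr1 window also holds 1 STAT motif (8.3% of all windows) and the Fcgr4 window 1 interferon-stimulated response motif (3.4%). The AP-1 motif, which 7.8% of all windows hold, is in none of the 6. In the windows of Fcgr2b, Fcer1g and Fcgrt none of the 4 motifs was found. A match describes these letters only, and binding was not measured.

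The comparison at 24 h asked which of these transcripts differed in macrophages that had been with HRG for a day. Fcgr4 and Fcgr1 were higher with HRG, at more than double their basal level at that time. Fcgr3, Fcgr2b and Fcer1g had positive differences that did not pass the test. Differences are given on the log2 scale with the standard error of a limma fit to all 8 arrays (n = 2 per group), and a gene is said to have risen or fallen where its Benjamini-Hochberg adjusted p over all genes was under 0.05. By that rule 2 of the 5 genes rose and 0 fell, where 2.43% of all genes rose and 1.05% fell. In all 5 genes both HRG arrays lay above both basal arrays, as they did in 19.1% of all genes. The median difference of the 5 genes was 0.42, and that of all genes was -0.02. Because these are bulk samples, fewer cells of a type and less RNA per cell cannot be told apart.

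Fcgr4, the gene of FcγRIV, an activating receptor for the mouse subclasses IgG2a and IgG2b, had log2 levels of 11.08 and 11.08 in HRG samples at 24 h and of 9.90 and 9.57 in basal samples at 24 h. At 6 h its levels were 10.27 and 10.40 with HRG and 10.30 and 10.19 in basal samples. The 24 h groups were thus well apart, with the HRG pair highest and the basal pair lowest of the 8 arrays, and the 6 h groups overlapped. The difference at 24 h was 1.34 ± 0.12 (2.54-fold, 95% interval 1.09 to 1.60, adjusted p = 7.4e-05).

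Fcgr1, the gene of the high-affinity receptor FcγRI (CD64), had log2 levels of 11.30 and 11.25 in HRG samples at 24 h and of 10.44 and 9.85 in basal samples at 24 h. At 6 h the levels were 11.01 and 11.23 with HRG and 10.75 and 10.81 in basal samples. With HRG both arrays were above both basal arrays at each time, and the basal duplicates at 24 h stood 0.59 apart, a gap larger than in 99.3% of genes. The difference at 24 h was 1.13 ± 0.16 (2.18-fold, 95% interval 0.78 to 1.47, adjusted p = 0.0019). Leaving out each array in turn kept it between 0.83, without basal 24 h replicate 2, and 1.42, without basal 24 h replicate 1, and past the threshold each time.

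Fcgr3, the gene of the low-affinity activating receptor FcγRIII, had log2 levels of 12.99 and 12.92 in HRG samples at 24 h and of 12.67 and 12.40 in basal samples at 24 h. At 6 h they were 12.20 and 12.05 with HRG and 12.25 and 12.13 in basal samples. Both 24 h groups lay above all 6 h arrays, which overlapped each other. The difference between HRG and basal samples at 24 h was 0.42 ± 0.11 (95% interval 0.17 to 0.66) and did not pass the test (adjusted p = 0.075). It passed without basal 24 h replicate 1 (0.55, adjusted p = 0.034).

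Fcer1g, the γ chain that carries the signal of all 3 activating receptors, varied least. At 24 h its log2 levels were 13.32 and 13.30 with HRG and 13.18 and 13.14 in basal samples. At 6 h they were 13.27 and 13.28 with HRG and 13.36 and 13.23 in basal samples. All 8 arrays lay within 0.22, a 1.16-fold range, and the difference at 24 h was 0.15 ± 0.09 (95% interval -0.06 to 0.35, adjusted p = 0.63).

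Fcgr2b, the inhibitory receptor, had log2 levels of 12.79 and 12.82 in HRG samples at 24 h and of 12.62 and 12.49 in basal samples at 24 h. At 6 h they were 12.59 and 12.54 with HRG and 12.54 and 12.41 in basal samples. The HRG pair at 24 h was highest, and the other groups lay close together. Its difference at 24 h was 0.25 ± 0.10 (1.19-fold, 95% interval 0.04 to 0.46, adjusted p = 0.26). The extracellular parts of the Fcgr2b and Fcgr3 proteins are closely alike, and how far the probes of the array tell their transcripts apart was not tested.

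**Figure D1:**
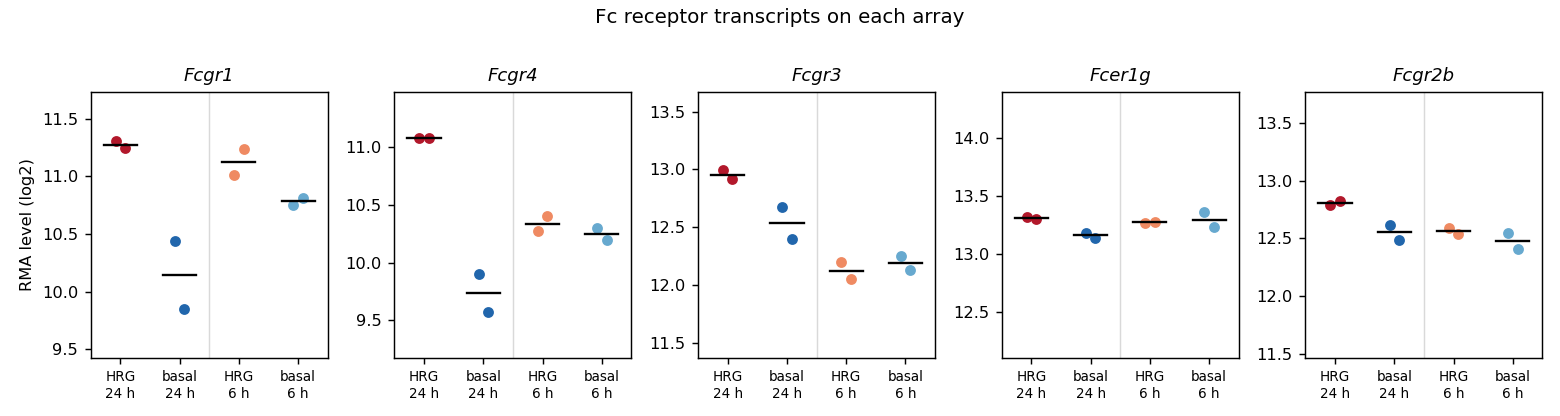
RMA log2 level (vertical axis, all panels spanning the same number of units) of the 5 measured Fc receptor genes on each array, with HRG left of basal at 24 h and at 6 h. Points are arrays and bars are means of 2. Fcgr4 and Fcgr1 are near 11 in HRG samples at 24 h and near 10 in basal samples at 24 h, while Fcer1g stays within 0.22 over all arrays.

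The activating receptors were also set against the inhibitory one within each array, as the log2 level of a gene minus that of Fcgr2b. This quantity holds the probe response of both genes, so only its change between groups can be read. For Fcgr4 it was -1.71 and -1.74 in HRG samples at 24 h and -2.72 and -2.91 in basal samples at 24 h, a change of 1.09 (2.13-fold). For Fcgr1 it was -1.49 and -1.58 with HRG and -2.18 and -2.63 in basal samples at 24 h, a change of 0.87 (1.83-fold). Fcgr3 changed by 0.17 and Fcer1g by -0.11 relative to Fcgr2b at 24 h. In each of these 4 cases the groups did not overlap. Of all genes, 2.91% were higher without overlap on this scale at 24 h, and 78.1% were lower. At 6 h the change was 0.25 for Fcgr1, -0.16 for Fcgr3 and -0.11 for Fcer1g, again without overlap, as in 5.97% of all genes for higher and 32.2% for lower values, while the Fcgr4 groups overlapped. The two-sided exact permutation p was 0.333 wherever groups did not overlap, the smallest that 2 arrays against 2 can give.

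At 6 h the question was whether the same transcripts differed early. None was past the threshold: 0 of 5 rose and 0 fell by limma, where 0.431% of all genes rose and 0.818% fell. At an unadjusted p under 0.05 the count was also 0 of 5, where 11% of all genes were under it. The count of adjusted calls was 0 in the alternative fits too. Fcgr1 had the largest difference, 0.34 ± 0.16 (95% interval -0.002 to 0.68, adjusted p = 0.46). It was also the only one whose HRG arrays both lay above both basal arrays, which held for 20.0% of all genes. Fcgr4 differed by 0.09 ± 0.12 (95% interval -0.16 to 0.34), Fcgr2b by 0.09 ± 0.10, Fcer1g by -0.02 ± 0.09 and Fcgr3 by -0.06 ± 0.11, with adjusted p between 0.83 and 0.97. These intervals are wide enough that small differences could not be detected with 2 arrays a group.

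Whether the difference between HRG and basal samples was larger at 24 h than at 6 h was tested directly. It was for Fcgr4, by 1.25 ± 0.16 (adjusted p = 0.0046), the 1 gene of 5 past the threshold in a comparison where 1.02% of all genes were higher and 0.451% lower. For Fcgr1 the change was 0.79 ± 0.22 and did not pass (adjusted p = 0.13). It passed without basal 24 h replicate 1 (1.08, adjusted p = 0.0069). For Fcgr3 the change was 0.48 ± 0.16 (adjusted p = 0.22), for Fcer1g 0.17 ± 0.13 and for Fcgr2b 0.16 ± 0.14 (adjusted p = 0.73 and 0.75).

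**Figure D2:**
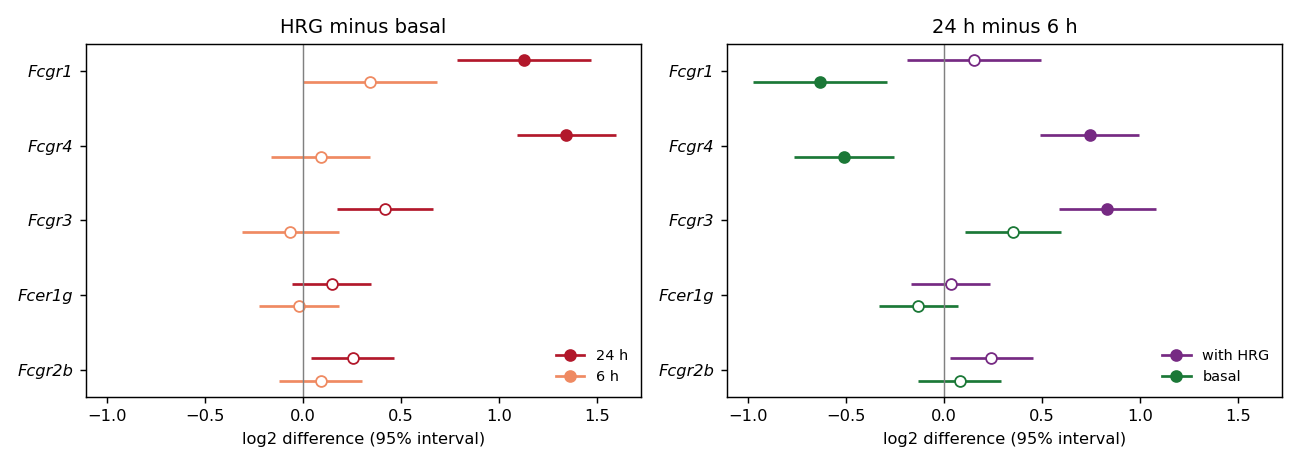
Difference in log2 level with its 95% interval for the 5 Fc receptor genes, HRG minus basal (left, at 24 h and 6 h) and 24 h minus 6 h (right, with HRG and in basal samples). Filled points passed an adjusted p of 0.05. Fcgr4 and Fcgr1 were higher with HRG at 24 h (1.34 and 1.13) and lower at 24 h than at 6 h in basal samples (-0.51 and -0.64).

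Time in culture was compared within each treatment. In HRG samples Fcgr3 rose by 0.83 ± 0.11 (1.78-fold, adjusted p = 0.00086) and Fcgr4 by 0.74 ± 0.12 (1.67-fold, adjusted p = 0.0022) between the 24 h and 6 h groups. That made 2 of 5 genes higher at 24 h and 0 lower, where 4.41% of all genes were higher and 2.87% lower. Fcgr2b (0.24 ± 0.10), Fcgr1 (0.15 ± 0.16) and Fcer1g (0.03 ± 0.09) did not pass, with adjusted p of 0.19, 0.72 and 0.92. In basal samples, by contrast, 2 of 5 were lower at 24 h and 0 higher, where 5.48% of all genes were lower and 3.80% higher. Fcgr1 fell by 0.64 on the log2 scale (SE 0.16, adjusted p = 0.024) and Fcgr4 fell by 0.51 (SE 0.12, adjusted p = 0.015).

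Both falls in basal samples lost their call in some fits without 1 array, which leave 1 array in a group and less precision. For Fcgr1 the change was -0.34 (adjusted p = 0.18) without basal 24 h replicate 2, -0.67 (0.069) without basal 6 h replicate 1 and -0.61 (0.072) without basal 6 h replicate 2. For Fcgr4 it was -0.35 (adjusted p = 0.14) without basal 24 h replicate 2 and -0.46 (0.087) without basal 6 h replicate 1. Fcgr3 was 0.35 ± 0.11 higher at 24 h in basal samples and did not pass (adjusted p = 0.081). It did without basal 24 h replicate 2 (0.49, adjusted p = 0.046). Fcgr2b changed by 0.08 ± 0.10 and Fcer1g by -0.13 ± 0.09 there (adjusted p = 0.74 and 0.49). The basal arrays at 24 h serve both this comparison and that of HRG with basal samples at 24 h, so the values of Fcgr1 and Fcgr4 in the 2 comparisons are not independent. Set against basal samples at 6 h by limma, HRG samples at 24 h were 0.83 ± 0.12 higher for Fcgr4 (adjusted p = 0.00058). For Fcgr1 that difference was 0.49 ± 0.16 and did not pass (adjusted p = 0.064).

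Ranked by their means, the groups came in the same order for Fcgr1 and Fcgr4 and in another order for each of the other genes. Fcgr1 was highest with HRG at 24 h (11.27 ± 0.04, SD, n = 2 here and below), then with HRG at 6 h (11.12 ± 0.16) and in basal samples at 6 h (10.78 ± 0.04), neighbours that did not differ past the threshold, and lowest in basal samples at 24 h (10.15 ± 0.41). Fcgr4 was at 11.08 ± 0.00030 with HRG at 24 h, above 10.34 ± 0.09 with HRG at 6 h and 10.25 ± 0.08 in basal samples at 6 h, which did not differ past the threshold (adjusted p = 0.87), and above 9.74 ± 0.23 in basal samples at 24 h. Fcgr3 was at 12.96 ± 0.05 with HRG and 12.54 ± 0.19 in basal samples at 24 h, both above the 6 h groups, which were at 12.12 ± 0.11 with HRG and, next above that, 12.19 ± 0.08 in basal samples. No 2 neighbours in its order differed past the threshold, nor in those of Fcgr2b (group means between 12.47 and 12.81) and Fcer1g (between 13.16 and 13.31).

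Genes whose profile over the 8 arrays was most like that of a receptor gene were found by Pearson correlation. The search covered 4728 genes with a range of at least 0.5. Predicted genes, clone names, small RNAs and antigen receptor segments had been left out. The arrays of 1 pool and 4 groups are shared by all these profiles, so the coefficients only describe them. Fcgr4 was nearest to Cd52 (r = 0.984, n = 8), a glycoprotein of leukocyte surfaces, Cxcr4 (0.974), the receptor of the chemokine CXCL12, and Pstpip1 (0.972), an adaptor of the actin cytoskeleton. Fcgr1 was nearest to Ms4a6b (0.979), Dhx58 (0.977), a helicase related to the cytosolic RNA sensors, and Hdac9 (0.966), a histone deacetylase. The nearest profiles to Fcgr3 were those of the chemokine Ccl9 (0.990), of Auh (0.987) and of the kinase Map3k12 (0.986). Fcgr2b was nearest to Clec5a (0.970), Il18 (0.968) and Hacd4 (0.962), and Fcer1g to H2-Oa (0.964), Cd55 (0.942) and Tlr1 (0.931), although these 2 receptor genes themselves varied by less than 0.5.

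The pathway around the receptors was described by lists, whose calls at 24 h are read against the 2.43% of all genes that rose and the 1.05% that fell. Of 20 measured genes of activating signalling, 1 rose with HRG at 24 h, 0 fell and 19 did not pass, with a median of 0.12. The gene was Fgr, a kinase of the Src family, with log2 levels of 9.33 and 9.04 in HRG samples and 8.43 and 8.35 in basal samples at 24 h, a difference of 0.80 ± 0.11 (adjusted p = 0.0015). At 6 h the Fgr difference was 0.48 ± 0.11 (adjusted p = 0.061). Syk, the kinase next in the pathway, differed by -0.01 (adjusted p = 0.98) at 24 h, from arrays between 11.46 and 11.53 with HRG and between 11.42 and 11.60 in basal samples.

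Of 12 genes of inhibitory signalling, 1 rose and 0 fell at 24 h, with a median of 0.12. It was Ptpn6, the phosphatase SHP-1, at 11.22 and 11.21 in HRG samples and 10.80 and 10.88 in basal samples (0.37 ± 0.09, adjusted p = 0.045). Ptpn6 lost its call in 6 of the 8 fits without 1 array, all but those without a basal 6 h array, at values between 0.34 and 0.41 and adjusted p up to 0.27. It was also lost with the arrays centred on their medians (adjusted p = 0.066), when the other arrays were left out of the fit (0.061) and with the replicate block (0.060). Inpp5d, the phosphatase SHIP-1, differed by 0.14 (adjusted p = 0.68) at 24 h and by 0.42 (adjusted p = 0.063) at 6 h. At 6 h, 0 genes of either signalling list were called, and their medians were -0.01 for activating and -0.06 for inhibitory signalling. Fgr and Inpp5d did pass at 6 h in 4 of 8 alternative fits each, with trend and robust in eBayes (adjusted p = 0.029 and 0.0052), after quantile normalization again (0.027 and 0.025), without the dimmest 30% of genes (0.040 and 0.038) and with each array's lower quartile as a covariate (0.030 and 0.024).

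Of 7 other measured receptors that pair with Fcer1g, 0 rose with HRG at 24 h, 6 did not pass and 1 fell, Clec4n, which encodes Dectin-2, a receptor for fungal mannans. Clec4n was at 11.79 and 11.93 in HRG samples and at 12.36 and 12.51 in basal samples at 24 h (-0.58 ± 0.14, adjusted p = 0.036), and its levels at 6 h lay between 10.31 and 10.79. Between 24 h and 6 h it rose by 1.20 with HRG and by 1.94 in basal samples. The difference with HRG did not pass without either basal 24 h array (-0.65, adjusted p = 0.062, without replicate 1, and -0.50, 0.25, without replicate 2) or either HRG 24 h array (-0.51, 0.32, without replicate 1, and -0.65, 0.10, without replicate 2).

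Receptors for other immunoglobulins and Fc receptor-like genes had the most calls at 24 h of the 6 lists around the receptors: 4 of 11 rose with HRG, 0 fell, and the median was 0.33. They were Fcmr, the receptor for IgM, by 0.81 ± 0.17 (adjusted p = 0.018), Fcrla, an intracellular Fc receptor-like protein of B cells, by 0.74 ± 0.14 (0.012), Ms4a2, the β chain of the high-affinity IgE receptor of mast cells, by 0.64 ± 0.14 (0.026), and Fcer2a, the low-affinity IgE receptor CD23 of B cells, by 0.64 ± 0.15 (0.037). Fcmr had 9.40 and 9.07 in HRG samples and 8.69 and 8.15 in basal samples at 24 h, and 9.07 and 8.80 with HRG and 9.25 and 9.19 in basal samples at 6 h. Ms4a2 was dim, at 6.58 and 6.11 in HRG samples and 5.70 and 5.70 in basal samples at 24 h. The lower quartiles of the arrays lay between 5.85 and 6.00. Fcer2a was between 6.35 and 7.37 over the 8 arrays. At 6 h, 0 of the 11 were called and the median was -0.18, although with the replicate block Fcer2a passed there (-0.53, adjusted p = 0.024, against 0.14 without it). In basal samples 5 of the 11 were lower at 24 h than at 6 h, Fcmr (-0.80), Fcrla (-0.83), Fcrl1 (-0.79), Fcrl5 (-0.71) and the cytosolic antibody receptor Trim21 (-0.46), and 0 were higher. Of all genes, 5.48% were lower in that comparison and 3.80% higher.

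Each of the 4 calls at 24 h was lost in some fits without 1 array. Such fits leave 1 array in a group and have less precision, so a call can be lost although the difference keeps its size. Fcmr did not pass without basal 24 h replicate 2 (0.54, adjusted p = 0.16) or HRG 24 h replicate 1 (0.65, 0.25), and Fcrla did not without the same arrays (0.54, 0.12, and 0.63, 0.18). Ms4a2 did not without basal 24 h replicate 1 (0.64, 0.093) or 2 (0.64, 0.13) or without HRG 24 h replicate 1 (0.41, 0.30). Fcer2a did not without basal 24 h replicate 2 (0.46, 0.32) or HRG 24 h replicate 1 (0.54, 0.35) or 2 (0.73, 0.091). With all arrays kept, Ms4a2 (0.67, adjusted p = 0.056) and Fcer2a (0.64, 0.062) also did not pass after quantile normalization again.

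**Figure D3:**
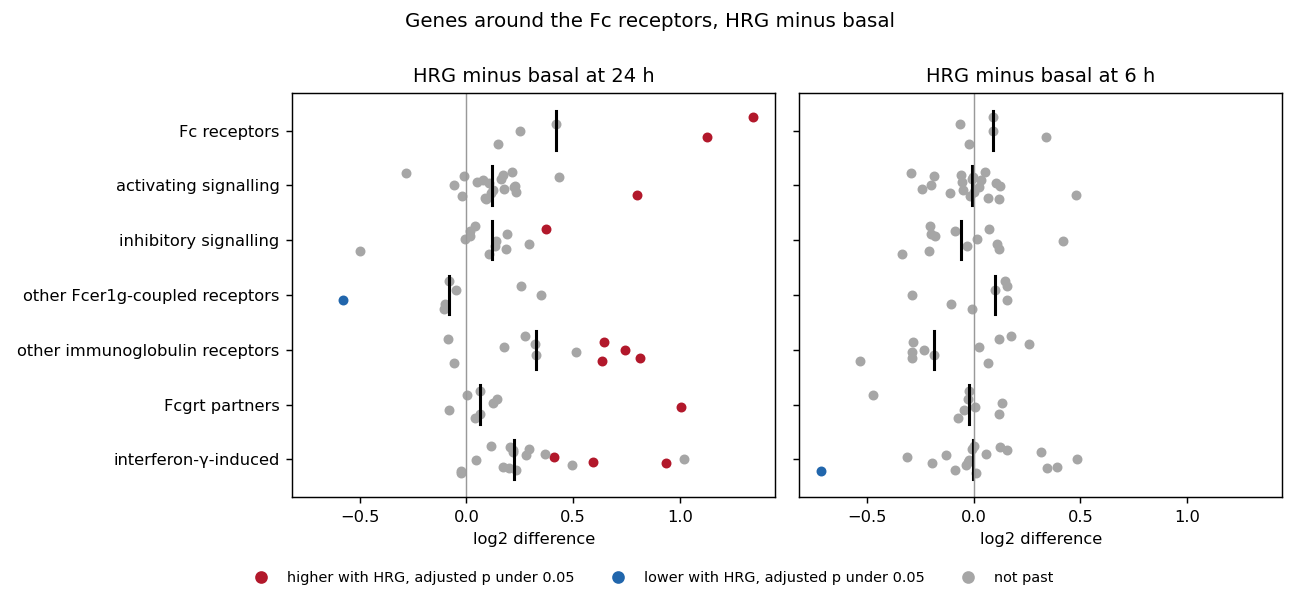
Difference HRG minus basal in log2 level (horizontal axis) for each measured gene of the Fc receptors and of 6 lists around them, at 24 h (left) and 6 h (right). Points are genes, coloured where the adjusted p was under 0.05, and bars are list medians. At 24 h the receptors for other immunoglobulins had 4 of 11 genes higher and the other Fcer1g-coupled receptors 1 of 7 lower, and at 6 h 1 gene of the interferon-γ list was lower.

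Among 8 partners of Fcgrt in the endosome and of antigen presentation, 1 rose with HRG at 24 h and 0 fell, with a median of 0.06. Cd74, the invariant chain of class II molecules, was at 11.51 and 11.34 in HRG samples and 10.57 and 10.27 in basal samples at 24 h (1.00 ± 0.12, adjusted p = 0.00051). At 6 h it was at 11.50 and 11.46 with HRG and 11.53 and 11.42 in basal samples, so only the basal arrays at 24 h stood apart. B2m, the light chain of the Fcgrt receptor, differed by 0.04 (adjusted p = 0.96) at 24 h.

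Interferon-γ is known to raise Fcgr1 and Fcgr4 in mouse macrophages, and a list of 18 measured genes that it induces was therefore set beside them. With HRG at 24 h 3 rose and 0 fell, with a median of 0.22: Gbp5, a guanylate-binding protein (0.93 ± 0.18, adjusted p = 0.013), H2-Ab1, a class II chain (0.59 ± 0.10, 0.0055), and the transcription factor Irf1 (0.41 ± 0.10, 0.044). Gbp5 and H2-Ab1 did not pass without basal 24 h replicate 2 (0.60, 0.091, and 0.53, 0.064) or HRG 24 h replicate 1 (0.82, 0.19, and 0.59, 0.068). Irf1 did not in 5 of 8 such fits, those without basal 24 h replicate 2 or any HRG array (0.30 to 0.41, adjusted p up to 0.36), and it was at 0.18 (adjusted p = 0.61) when its rows were averaged and at 0.39 (0.056) after quantile normalization again.

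At 6 h 0 genes of the interferon-γ list rose and 1 fell, the costimulatory receptor Cd40 (-0.71 ± 0.13, adjusted p = 0.026). At that time 0.431% of all genes rose and 0.818% fell. Cd40 did not pass without basal 6 h replicate 1 (-0.61, 0.14), HRG 6 h replicate 2 (-0.57, 0.28) or either HRG 24 h array (-0.71, 0.054). With time in basal samples 10 of the 18 genes fell, among them Gbp5 (-1.78) and the chemokine Cxcl10 (-1.66), and 1 rose, Nos2 (0.77). With HRG, 5 fell with time and 1 rose. Of all genes, 5.48% fell and 3.80% rose with time in basal samples, and 2.87% fell and 4.41% rose with HRG. A part of interferon-γ in the results for Fcgr1 and Fcgr4 was not tested.

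**Figure D4:**
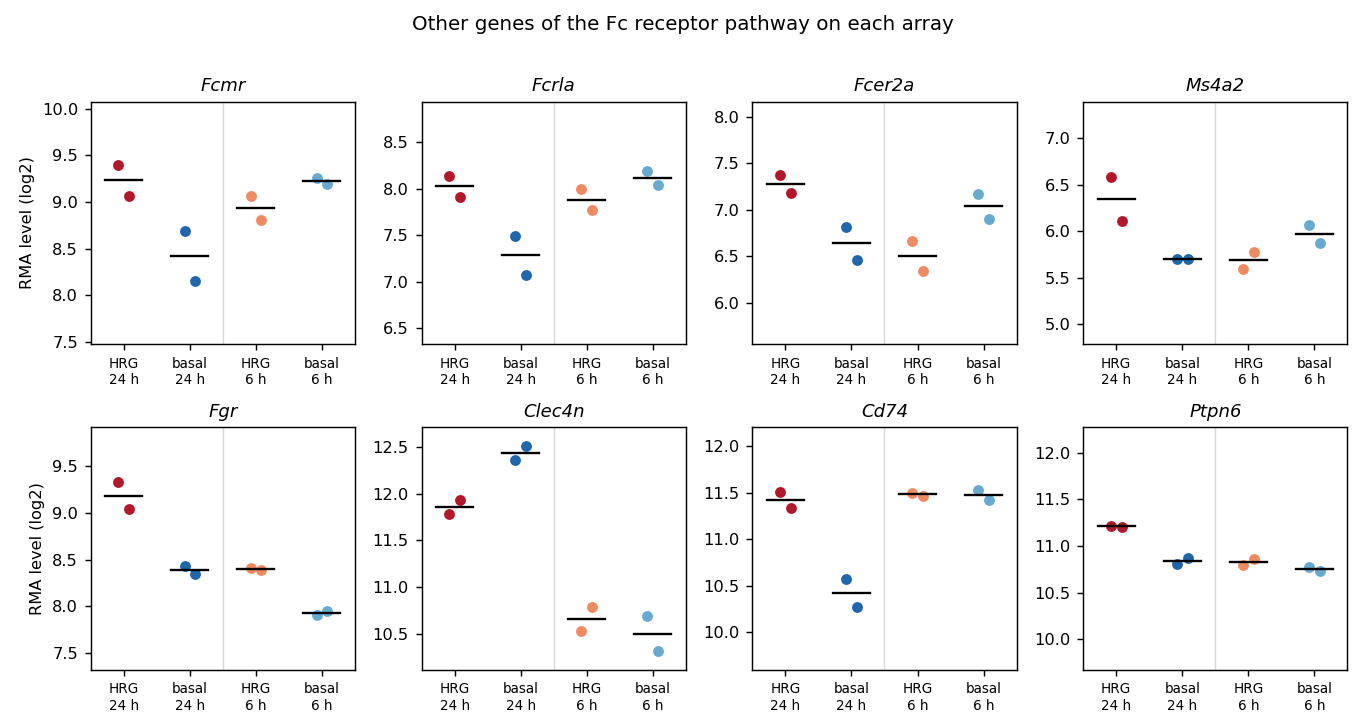
RMA log2 level (vertical axis, all panels spanning the same number of units) of 8 genes around the Fc receptors on each array, with HRG left of basal at each time. Points are arrays and bars are means of 2. Cd74 is near 11.4 in HRG samples and near 10.4 in basal samples at 24 h, and Clec4n is lower with HRG than in basal samples at 24 h and lower still at 6 h.

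Other cell types of a peritoneal lavage carry some of these receptors, B cells Fcgr2b, Fcmr and Fcer2a, and mast cells Fcer1g, Fcgr3 and Ms4a2, so their markers are given beside the results. Of 10 B cell markers 4 rose with HRG at 24 h and 0 fell (median 0.49), with Cd79a, a chain of the antigen receptor complex, at 0.98 ± 0.16. At 6 h 0 rose and 1 fell (median -0.34), where 0.431% of all genes rose and 0.818% fell. The mean log2 level of the list was 8.62 and 8.36 in HRG samples and 8.16 and 7.81 in basal samples at 24 h, and 8.36 and 8.41 with HRG and 8.70 and 8.73 in basal samples at 6 h. With time in basal samples 8 of the 10 fell, where 5.48% of all genes fell. Of 10 mast cell markers 5 rose with HRG at 24 h and 0 fell (median 0.57), Ms4a2 among them, and 5 fell with time in basal samples. At 6 h 0 mast cell markers were called. The mean of that list was 9.62 and 9.31 in HRG samples and 8.85 and 9.07 in basal samples at 24 h, and 9.30 and 9.40 with HRG and 9.55 and 9.42 in basal samples at 6 h. No defining marker of either list can be said to be at 0, since the arrays have no true zero, and the part of these cells in the results was not tested.

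Of 11 macrophage markers, 2 rose with HRG at 24 h and 0 fell, the mannose receptor Mrc1 (1.47 ± 0.12) and Mertk (0.51 ± 0.10), a receptor for apoptotic cells. Adgre1, Csf1r, Cd68 and Lyz2 were not among the called genes. At 6 h 1 of the 11 rose, Mertk (0.81), and 0 fell. The median difference of the list at 24 h was 0.18, with 10 of the 11 above 0, and the median of all genes was -0.02. The mean level of the list was 12.02 and 11.97 in HRG samples and 11.68 and 11.69 in basal samples at 24 h, and 11.61 and 11.68 with HRG and 11.56 and 11.48 in basal samples at 6 h. Of 11 markers of large peritoneal macrophages, 4 rose and 1 fell with HRG at 24 h, and 4 rose and 1 fell at 6 h. Among T cell markers 0 of 9 were called at 24 h and 2 fell at 6 h, and among dendritic cell markers 1 of 8 rose at 24 h and 1 fell at 6 h. At both times 0 natural killer cell, neutrophil and eosinophil markers were called. Of all genes, 2.43% rose and 1.05% fell with HRG at 24 h, and 0.431% rose and 0.818% fell at 6 h. The part of these marker shifts in the receptor results was not tested either.

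**Figure D5:**
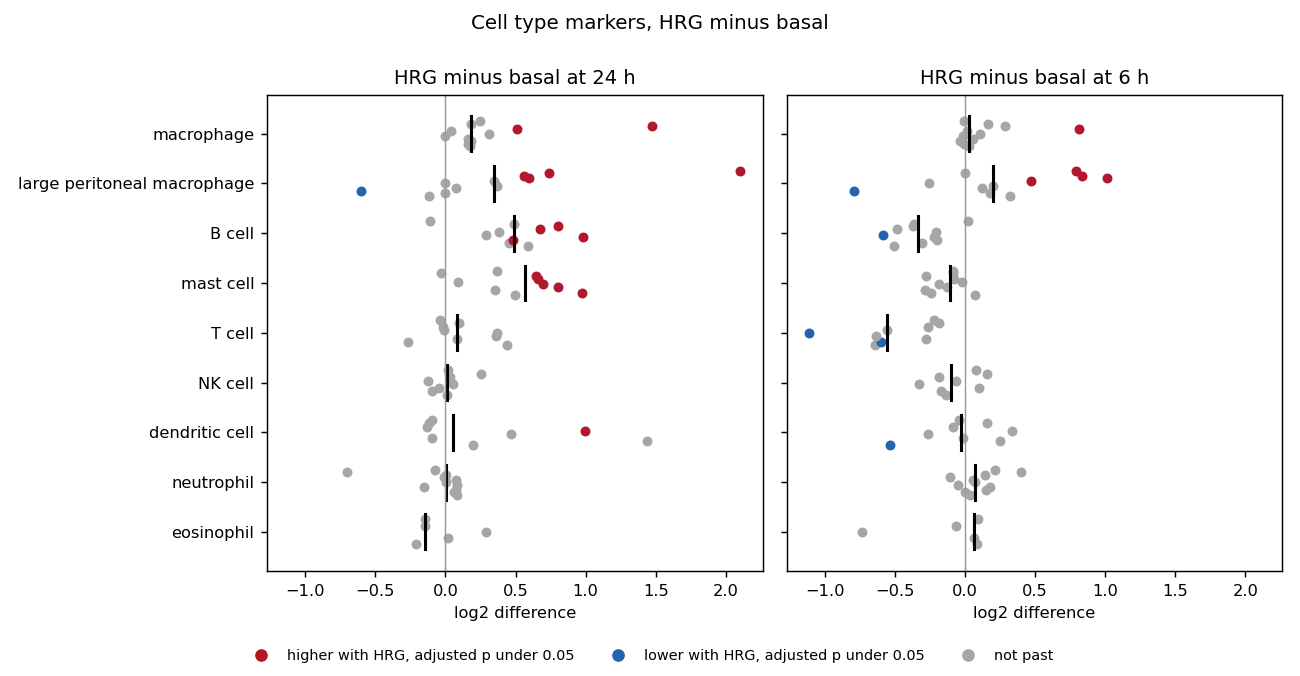
Difference HRG minus basal in log2 level (horizontal axis) for each measured marker of 9 cell types, at 24 h (left) and 6 h (right). Points are genes, coloured where the adjusted p was under 0.05, and bars are list medians. At 24 h the medians of the B cell and mast cell lists were 0.49 and 0.57, and at 6 h they were -0.34 and -0.11.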

How the data were processed

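Total RNA (250 ng per sample) was labelled as biotinylated sense-strand cDNA, per the labels' protocols. The values deposited are log2 levels that the authors made with Affymetrix Expression Console and RMA, which corrects background, quantile-normalizes and summarises probes; limma is also named, per the submitters' processing notes. Versions and the genome build were not given in the sources used here.

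Of 28853 rows, the platform annotation, which can be old, names 1 gene symbol for 21789, several for 1621 and none for 5443. Gene IDs of 21698 rows matched a RefSeq table of GRCm38.p6, used for names and neighbours, and 0 symbols changed. Only rows with 1 symbol were used. Where a gene had several rows (999 genes), the row with the highest mean was kept, which gave 19938 genes. Groups were taken from the sample titles.

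In R 4.3.3, limma 3.58.1 (lmFit, contrasts.fit, eBayes) was fitted to all 8 arrays with 1 coefficient per group (4 residual degrees of freedom, prior 7.81). Tests were two-sided, with Benjamini-Hochberg adjustment over all genes of a comparison and a threshold of 0.05. The fit was tested on simulated data. From each pathway list up to 4 called genes with the largest change were named, with Syk, Inpp5d, Ptpn6 and B2m in any case. Members, the 16 lists (164 of 179 entries measured) and these rules were chosen with earlier results of these data known. Other genes named from lists were chosen after their values were seen. Alternatives were a replicate block, a robust and trended eBayes prior, a second quantile normalization, median centring, leaving out the dimmest 30% of genes, averaging rows, fitting the compared arrays alone, and omitting each array. A covariate for each array's lower quartile was chosen after seeing the data.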

Additional observations from a re-analysis of the deposited data

Results flagged for a closer look

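A count was made among the Fc receptor genes and the genes named by rule from the pathway lists, leaving out the markers. For 7 of them the limma test found a larger difference between HRG and basal samples at 24 h than at 6 h. Most genes named by rule were picked for a difference past the threshold at 24 h or 6 h, which enters this test. The count of 7 is thus not to be read against the share of all genes. By the same test 6 of 10 B cell and 4 of 10 mast cell markers were higher, with Ms4a2 in both counts. So were 2 of 11 large peritoneal macrophage, 1 of 11 macrophage, 1 of 9 T cell and 1 of 8 dendritic cell markers. In these lists 0 were lower, and of all genes 1.02% were higher and 0.451% lower. Fcgr4 had a difference of 1.34 at 24 h and 0.09 at 6 h, a change of 1.25 ± 0.16 (adjusted p = 0.0046), and it passed in all 8 fits without 1 array (adjusted p up to 0.036). Cd74 changed by 0.99 ± 0.16 (adjusted p = 0.013), but did not pass without HRG 24 h replicate 1 (0.91, 0.087) or HRG 6 h replicate 2 (0.98, 0.061). Fcer2a changed by 1.17 ± 0.21 (adjusted p = 0.022), from 0.64 at 24 h and -0.53 at 6 h, and did not pass in 4 of the 8 fits, those without basal 24 h replicate 2, basal 6 h replicate 1, HRG 24 h replicate 1 or HRG 6 h replicate 2 (0.99 to 1.07).

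The remaining changes lost their call in most fits without 1 array. Fcmr changed by 1.10 ± 0.24 (adjusted p = 0.043) and passed only without basal 24 h replicate 1 (7 of 8 lost, lowest value 0.83, adjusted p up to 0.23). Fcrla changed by 0.97 ± 0.20 (adjusted p = 0.036) and Irf1 by 0.72 ± 0.14 (0.030), and both passed only without basal 24 h replicate 1 or basal 6 h replicate 2 (6 of 8 lost, lowest values 0.77 and 0.61). Ms4a2 changed by 0.93 ± 0.20 (adjusted p = 0.045) and passed only without basal 6 h replicate 2 or HRG 24 h replicate 2 (6 of 8 lost, lowest value 0.69). Irf1 was at 0.34 (adjusted p = 0.42) when its rows were averaged.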

How the results depend on the processing

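Over 195 values of the 5 Fc receptor genes under settings that kept every array or only the arrays compared, 186 kept their side of the threshold, 2 lost it, 7 gained it and 0 turned sign. Over 342 such values of the other named genes, 309 kept their side, 11 lost it, 21 gained it and 1 turned sign. The cause of these shifts was not tested. With trend and robust in eBayes, 4 receptor genes rose with HRG at 24 h, 2 had a larger HRG difference at 24 h than at 6 h, and 1 was higher at 24 h in basal samples. Quantile normalization again, and a fit on only the arrays compared, each left 1 gene that fell with time in basal samples. Whether the replicate numbers pair the samples is not stated in the sources used here. Deviations of same-numbered arrays correlated between -0.33 and 0.41, negative in each pair of groups with basal 24 h and positive in the others. With 2 arrays per group these values cannot decide it. With the replicate block Fcgr3 passed at 24 h (0.42, adjusted p = 0.038) and with time in basal samples (0.35, 0.048), which made 1 gene higher there, Ptpn6 did not pass at 24 h (0.37, 0.060), Fcer2a passed at 6 h (-0.53, 0.024), and the change of the HRG difference passed for Gbp5 (1.13, 0.010) and H2-Ab1 (0.62, 0.044). Without 1 array, the genes called ranged from 2 to 3 higher with HRG at 24 h, 1 to 2 for the change of the HRG difference, and 0 to 1 higher and 0 to 2 lower with time in basal samples.

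Signs turned only for differences that never passed. Without 1 array the ranges at 6 h were -0.085 to 0.043 for Fcer1g, -0.14 to 0.012 for Fcgr3, -0.098 to 0.049 for H2-Ab1, -0.030 to 0.34 for Clec4n and -0.045 to 0.060 for Cd74 (-0.0027 with arrays centred). At 24 h they were -0.19 to 0.14 for Cd40, -0.10 to 0.077 for Syk and -0.041 to 0.12 for B2m. Over all genes, counts moved at 6 h, where 86 rose and 163 fell: 180 and 312 with trend and robust, 160 and 211 after quantile normalization again, 58 and 97 in a fit on only those arrays, and 208 and 265 with the lower quartile as covariate. That covariate gave 410 lower genes at 24 h against 209, and for the change of the HRG difference 195 lower against 90, where trend and robust gave 392 higher against 204 and 155 lower against 90. For 24 h against 6 h with HRG, lower genes numbered 572, against 911 in a fit on only those arrays and 1221 with the covariate. Leaving out 1 array gave 110 to 536 higher and 72 to 252 lower genes at 24 h, 10 to 103 and 11 to 184 at 6 h, 28 to 265 and 28 to 139 for the change of the HRG difference, 390 to 985 and 139 to 695 with time with HRG, and 373 to 684 (758 with all arrays) and 600 to 1133 (1093) with time in basal samples.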

Other observations

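The integrin chain Itgax (CD11c), a marker of dendritic cells that macrophages can carry, was 1.00 ± 0.11 higher with HRG at 24 h (adjusted p = 0.00039), and 0.33 ± 0.11 higher at 6 h, which did not pass. Spi1, the gene of PU.1, changed by -0.39 ± 0.10 between 24 h and 6 h in basal samples (adjusted p = 0.035), and it was not called for HRG against basal samples at either time. Both genes were chosen after their values were seen.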
